A study of Homo sapiens with 4 samples.

Results

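The genes examined were 10 genes of the hypoxia-inducible factor (HIF) pathway, in RNA-seq of a human leukemia cell line after knockdown of LDB1. They were 2 HIF alpha subunits (HIF1A and EPAS1), 3 prolyl hydroxylases (EGLN1, EGLN2 and EGLN3) and 5 target genes (VEGFA, ADM, BNIP3, NDRG1 and CA9). The 10 genes were taken by name from the 28412 genes of the deposited table, and all 10 had a row. There were 4 libraries of cells labelled NB4, a promyelocytic line. Cells of 2 libraries held the sh-NC control vector, and those of the other 2 held sh-LDB1, an shRNA against LDB1, which is the adaptor of a transcription complex that holds LMO2. Vectors were delivered by lentivirus, and infected cells were selected with puromycin. The labels name no oxygen condition, do not say which shRNA was sequenced, and do not say whether replicates were separate cultures, so the p-values measure only the spread between these libraries.

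HIF is a pair of proteins, an alpha subunit and its partner ARNT. When oxygen is present, the EGLN enzymes hydroxylate prolines of the alpha subunit, VHL binds the hydroxylated protein, and it is degraded. When oxygen is scarce, the alpha subunit persists and pairs with ARNT in the nucleus. The pair binds short DNA motifs near genes of glycolysis, blood vessel growth and pH control. This control acts mainly on the protein, so transcript levels of HIF1A or EPAS1 do not measure HIF activity.

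The motif that HIF binds has the core ACGTG or GCGTG. It was searched on both strands in the 250 bases before the RefSeq gene starts (GRCh38.p14). Promoters were found for 8 of the 10 genes, all but VEGFA and NDRG1. ACGTG lay in a promoter of 4 of these 8 genes, which have 10 promoters in the table. Counted by promoter it lay in 4 of 10, beside 18.5% of all 35116 promoters. The 50 bases around it are printed for these 4 genes, because they are the members that hold this core. Capitals mark ACGTG on either strand.
EGLN1 (chr1:231422288-231422337, minus strand): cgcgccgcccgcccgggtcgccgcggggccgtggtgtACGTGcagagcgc
EGLN2 (chr19:40799119-40799168, plus strand): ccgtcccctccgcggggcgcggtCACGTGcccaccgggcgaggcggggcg
BNIP3 (chr10:131982031-131982080, minus strand): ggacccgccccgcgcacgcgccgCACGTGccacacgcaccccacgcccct
CA9 (chr9:35673878-35673927, plus strand): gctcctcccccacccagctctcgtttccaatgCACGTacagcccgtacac
In EGLN2 and BNIP3 the match is the palindrome CACGTG, which is also the E-box letters bound by MYC and related factors. The match began 13 bases before the start in EGLN1 and 18 bases before it in CA9. GCGTG on either strand was found in promoters of HIF1A, EPAS1, ADM and BNIP3, and in 32.2% of all promoters. EGLN3 held neither. A match is a description of the letters and not a measured site.

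The values are FPKM, which divide the fragments of a gene by its exon length and by a total for its library. This total was not the number of recovered reads. The controls had smaller totals (replicate 1, 16182674 against 16311309 reads, replicate 2, 14746656 against 14937620). Totals were larger after the knockdown (replicate 1, 16021191 against 15028962 reads, replicate 2, 15131588 against 14113444). So the deposited scaling differed between the groups. Scaling by total reads instead moved the median of all genes by 0.09 on the log2 scale. Libraries held 14113444 to 16311309 recovered reads. The correlation of log2(FPKM + 1) across genes was 0.985 and 0.984 between replicates and 0.856 to 0.863 between groups, which describes the libraries only. LDB1 was 135.1 and 120.1 FPKM in sh-NC and 10.2 and 9.47 FPKM in sh-LDB1 (log2 fold change -3.56, limma adjusted p = 6.93e-05). Markers were examined to check the labelled cell type. The summed level of 10 erythroid markers was 3716 and 3877 FPKM in sh-NC and 323.0 and 289.2 FPKM in sh-LDB1, and 8 of the 10 were at 1 FPKM or more in every library. The summed level of 6 promyelocytic markers was 11.5 and 10.6 FPKM in sh-NC and 32.0 and 29.4 FPKM in sh-LDB1. Of these 6, 3 were at 1 FPKM or more in every library and 1 was below 1 FPKM in every library. Not all of the 6 rose with their sum. MPO and CTSG had no row in the values used here, so no level can be given for them. So the control cells carried more erythroid than promyelocytic transcript, against the label, and both sums differed between the groups. The sum of 5 fibroblast markers was also higher after the knockdown, at 0.307 and 0.136 FPKM in sh-NC and 2.61 and 2.35 FPKM in sh-LDB1, with 4 of the 5 below 1 FPKM in every library. Endothelial markers summed to 0.611 and 0.694 FPKM in sh-NC and to 0.90 and 0.939 FPKM in sh-LDB1 over 3 genes, all below 1 FPKM. The part of these shifts in the results that follow was not tested. In bulk RNA, fewer cells of a type and less RNA per cell cannot be told apart.

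To investigate how the members responded, sh-LDB1 was set against sh-NC by limma on log2(FPKM + 1), with p-values adjusted by the Benjamini-Hochberg method over 13300 genes of at least 1 FPKM on average. Fold changes on this scale understate the change of low genes. Results showed that 4 members, NDRG1, CA9, ADM and VEGFA, rose past an adjusted p-value of 0.05 and a fold change of 2, and 0 members fell past it. Of all genes tested, 9.50% rose and 10.3% fell past the same threshold, 19.8% in all. By adjusted p-value alone, 7 members were higher and 2 lower, against 29.9% and 37.4% of all genes, 67.4% in all. No overlap between sh-NC and sh-LDB1 libraries was seen for any of the 10 members, of which 7 were higher and 3 lower in sh-LDB1. The same held for 84.6% of all genes, 38.3% being higher and 46.3% lower, so separation of the libraries was the usual case. Each member value came from between 7 and 12435 recovered reads. All 10 passed the filter, but ADM passed it only through the sh-LDB1 libraries, so its call adds nothing to the count, which was 3 of 9 without it.

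**Figure D1:**
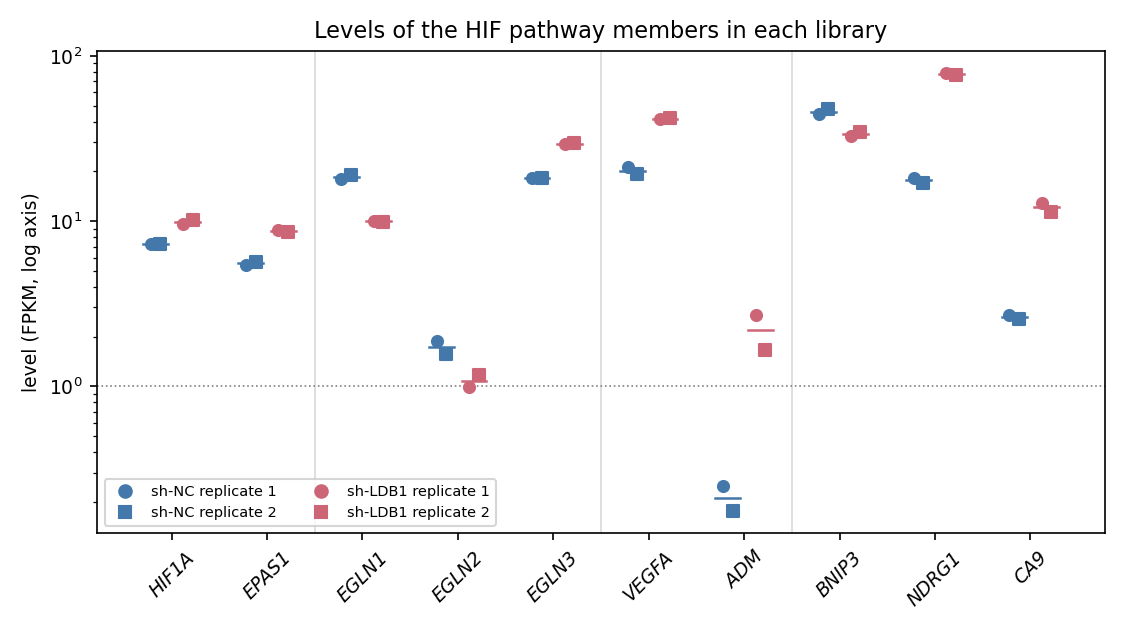
Level of each member in every library in FPKM, on a log axis, with sh-NC in blue and sh-LDB1 in red, replicate 1 as circles, replicate 2 as squares and group means as short lines. The dotted line marks 1 FPKM. NDRG1 had the highest level in sh-LDB1, while BNIP3 had the highest level in sh-NC.

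The 2 alpha subunits were examined first. HIF1A is expressed in most tissues, while EPAS1 encodes HIF-2 alpha, which controls erythropoietin. HIF1A (chromosome 14, 61695513 to 61748259, plus strand, GRCh38) was 7.29 and 7.29 FPKM in sh-NC and 9.66 and 10.2 FPKM in sh-LDB1. Both sh-LDB1 libraries were above both controls, and the mean was 36.0% higher. It rose by 0.40 on the log2 scale (SE 0.0546, limma adjusted p = 0.00331), which is within the fold-change threshold. EPAS1 (chromosome 2, 46293667 to 46386697, plus strand) was 5.42 and 5.66 FPKM in sh-NC and 8.84 and 8.57 FPKM in sh-LDB1. It rose by 0.57 on the log2 scale (SE 0.0566, limma adjusted p = 0.00119), again within the threshold. The ratio of EPAS1 to HIF1A per library was 0.743 and 0.775 in the controls, against 0.915 and 0.841 after the knockdown. So HIF1A had the higher level per length in every library, though the exons of each gene, whose length divides the value, differ between genes.

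HIF1A shares exon sequence with an antisense gene. ENSG00000258667, named HIF1A-AS2 in the table and HIF1A-AS3 in GENCODE 44, overlaps 299 exon bases of HIF1A on the other strand. It held 24 and 8 recovered reads in the controls, against 170 and 173 reads after the knockdown. HIF1A itself held 608 and 554 reads in the controls, against 797 and 794 reads after the knockdown. Whether strand was used in counting is not stated, so reads of the shared bases cannot be told apart. HIF1A-AS2 was named after its values were seen. It rose by 2.97 on the log2 scale (SE 0.311, limma adjusted p = 0.0014).

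The hydroxylases changed in opposite directions. EGLN1 encodes PHD2, the main oxygen sensor of the family in most cells. EGLN1 (chromosome 1, 231363751 to 231422287, minus strand) was 18.0 and 18.9 FPKM in sh-NC and 9.94 and 9.93 FPKM in sh-LDB1. The mean fell from 18.5 ± 0.647 FPKM to 9.94 ± 0.00486 FPKM (SD, n = 2 each). The log2 fold change of EGLN1 was -0.83 (SE 0.05, limma adjusted p = 0.000299), and it stayed short of the fold-change threshold. EGLN3 encodes PHD3, itself a HIF target in many cells. EGLN3 (chromosome 14, 33924227 to 34462774, minus strand) was 18.3 and 18.3 FPKM in sh-NC and 29.1 and 29.7 FPKM in sh-LDB1. It rose by 0.66 on the log2 scale (SE 0.0421, limma adjusted p = 0.000353), and was also short of the threshold.

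EGLN2, which encodes PHD1, was the lowest of the 3. EGLN2 (chromosome 19, 40798996 to 40808434, plus strand) was 1.87 and 1.57 FPKM in sh-NC and 0.987 and 1.17 FPKM in sh-LDB1. The groups did not overlap, but the difference missed the threshold (log2 fold change -0.39, 95% interval -0.74 to -0.03 before adjustment, limma adjusted p = 0.0553). Its adjusted p-value ranged from 0.00215 to 0.197 over the alternatives, and was below 0.05 by voom on the recovered reads, without the variance trend and with the filter of 1 FPKM in 2 libraries. EGLN2 shares 2012 exon bases with the read-through gene RAB4B-EGLN2, which is not analysed here, so its level is uncertain.

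The hydroxylase transcripts were therefore set side by side. EGLN3 over EGLN1 was 1.02 and 0.964 in the sh-NC libraries and 2.92 and 2.99 in the sh-LDB1 libraries. In the controls the libraries of the 2 genes overlapped, and after the knockdown EGLN3 was the higher one in both libraries. The log2 ratio rose by 1.58, with an SD of 0.0533 in sh-NC and 0.0242 in sh-LDB1. An exact two-sided permutation test gave p = 0.333, the smallest that 2 against 2 libraries allow, for each of the 4 ratios computed (0.333 after adjustment). EGLN1 made up 47.2% and 48.8% of the summed EGLN FPKM in the controls, against 24.9% and 24.3% after the knockdown. The sum over the 3 genes lay between 38.2 and 40.8 FPKM in all 4 libraries. EGLN1 shares 3004 exon bases with the same-strand gene ENSG00000287856, which is not analysed here.

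**Figure D2:**
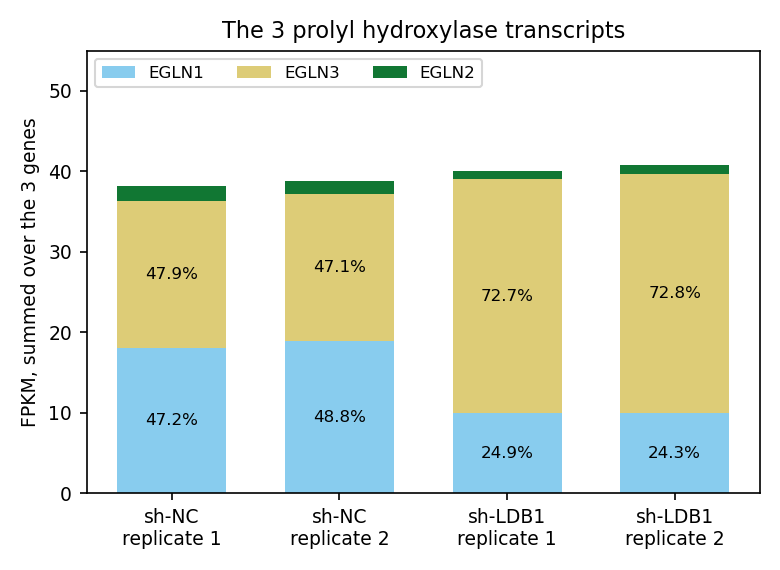
FPKM of EGLN1, EGLN3 and EGLN2 stacked for each library, with the share of the sum printed in the bars for EGLN1 and EGLN3. EGLN3 took 47.1% and 47.9% of the sum in the controls, against 72.7% and 72.8% after the knockdown.

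Among the targets, NDRG1 had the largest log2 fold change of the 10 members at a pseudocount of 1, while by ratio of mean FPKM it came after ADM and CA9. NDRG1 encodes a stress-response protein that is induced by low oxygen and in differentiating cells. NDRG1 (chromosome 8, 133237175 to 133302022, minus strand) was 18.3 and 17.0 FPKM in sh-NC and 79.0 and 76.9 FPKM in sh-LDB1. The mean rose 4.42-fold, from 17.6 ± 0.969 FPKM to 78.0 ± 1.48 FPKM (SD, n = 2 each). On the log2(FPKM + 1) scale the rise of NDRG1 was 2.08 (SE 0.054, limma adjusted p = 8.04e-05). It stood at rank 164 of the 13300 genes by log2 fold change. NDRG1 shares 753 exon bases with the same-strand gene ENSG00000289316, not analysed here. Reads of NDRG1 numbered 2914 and 2457 in the controls, against 12435 and 11434 after the knockdown.

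CA9 encodes carbonic anhydrase IX, a cell-surface enzyme that helps to regulate pH and is widely used as a marker of hypoxia. CA9 (chromosome 9, 35673928 to 35681159, plus strand) was 2.70 and 2.56 FPKM in sh-NC and 12.9 and 11.4 FPKM in sh-LDB1. All sh-LDB1 values were far above the controls, and the mean was 4.60-fold higher. On the log2 scale CA9 rose by 1.85 (SE 0.0804, limma adjusted p = 0.000152), at rank 275 of the 13300 genes. These values rested on 73 and 63 control reads, and on 344 and 287 reads after the knockdown. ARHGEF39, on the other strand, shares 571 exon bases with CA9. It was named after its values were seen. It went from 425 and 476 reads to 201 and 263 reads, in the direction opposite to CA9.

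VEGFA, the growth factor that drives blood vessel formation, was close to the fold-change threshold. VEGFA (chromosome 6, 43770184 to 43786487, plus strand) was 21.1 and 19.3 FPKM in sh-NC and 41.4 and 41.8 FPKM in sh-LDB1. Both sh-LDB1 libraries were higher, and the mean was 2.06-fold the control mean. On the log2 scale VEGFA rose by 1.01 (SE 0.0584, 95% interval 0.85 to 1.16, limma adjusted p = 0.000272). Without sh-NC replicate 2 it was 0.94, and the gene then no longer passed the threshold of 2. Its relative VEGFB was 36.3 and 41.7 FPKM in sh-NC and 33.5 and 32.2 FPKM in sh-LDB1 (limma, adjusted p = 0.0504). VEGFA over VEGFB was 0.582 and 0.462 in the controls, against 1.23 and 1.30 after the knockdown. So the order of the 2 ligands per length differed between the groups. In recovered reads VEGFA was above VEGFB in every library, with 4937 and 4101 against 908 and 950 in sh-NC. The fitted lengths that divide these reads were 14431 bases for VEGFA and 1545 bases for VEGFB. VEGFB was named after its values were seen. VEGFA shares 188 exon bases with ENSG00000272114 on the other strand, not analysed here.

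ADM encodes adrenomedullin, a peptide that widens blood vessels. ADM (chromosome 11, 10305073 to 10307397, plus strand) was 0.25 and 0.175 FPKM in sh-NC and 2.71 and 1.65 FPKM in sh-LDB1. It was the lowest member in the controls, with 11 and 7 reads, against 118 and 68 reads in sh-LDB1. The sh-LDB1 libraries were both higher but differed from each other more than for any other member relative to the mean. ADM rose by 1.37 on the log2 scale (SE 0.215, limma adjusted p = 0.00496). The size depended on the pseudocount, since it was 2.84 with a pseudocount of 0.1 and 3.27 by voom on the recovered reads. Without sh-LDB1 replicate 1, ADM was under the filter and had no test.

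BNIP3, a mitochondrial protein that promotes mitophagy, was the target that fell. BNIP3 (chromosome 10, 131967684 to 131981967, minus strand) was 44.2 and 47.4 FPKM in sh-NC and 32.8 and 34.4 FPKM in sh-LDB1. The mean fell by 26.7%, and both sh-LDB1 libraries were below both controls. The log2 fold change of BNIP3 was -0.44 (SE 0.0551, limma adjusted p = 0.0025), within the threshold. Its relative BNIP3L, a mitophagy receptor that also clears mitochondria in maturing red cells, was 32.3 and 33.5 FPKM in sh-NC and 46.5 and 46.3 FPKM in sh-LDB1. It rose by 0.48 on the log2 scale (SE 0.0422, limma adjusted p = 0.000815), also within the threshold. BNIP3L over BNIP3 was 0.729 and 0.707 in the controls, against 1.42 and 1.35 after the knockdown. BNIP3L was named after its values were seen.

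**Figure D3:**
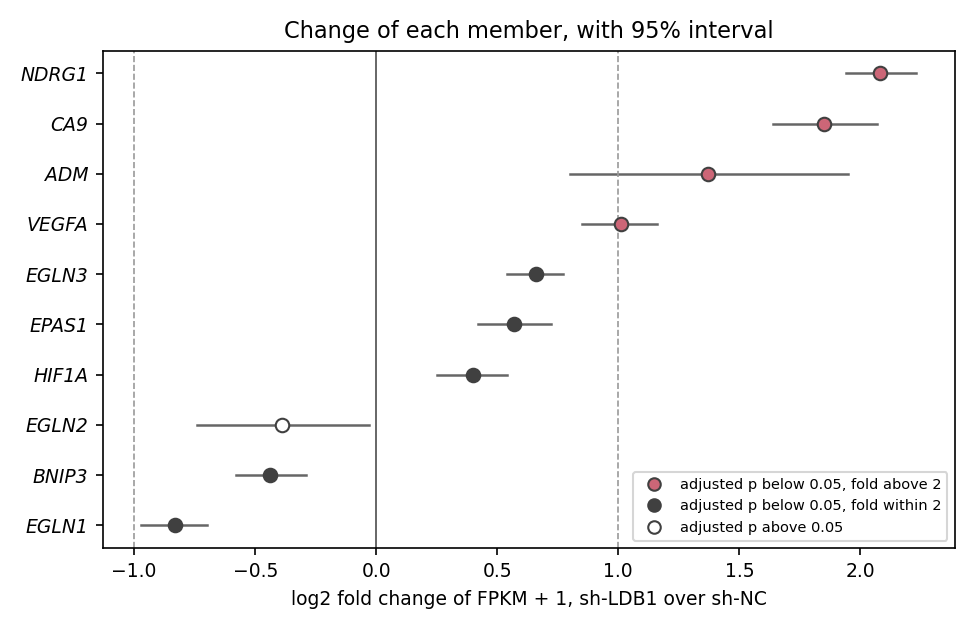
Log2 fold change of FPKM + 1 of each member in sh-LDB1 over sh-NC, with its 95% interval before adjustment. Dashed lines mark a fold change of 2 in either direction, and only NDRG1, CA9, ADM and VEGFA lie past the upper one.

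The order of the members differed between the groups. In sh-NC, BNIP3 was first at 45.8 ± 2.22 FPKM, followed by VEGFA at 20.2 ± 1.32 FPKM (SD, n = 2 each). EGLN1, EGLN3 and NDRG1 came next, at means of 17.6 to 18.5 FPKM, with the libraries of NDRG1 overlapping those of both hydroxylases. HIF1A, EPAS1, CA9, EGLN2 and ADM followed without overlap between neighbours. In sh-LDB1, NDRG1 was first, followed by VEGFA, BNIP3, EGLN3 and CA9. EGLN1 at 9.94 FPKM and HIF1A at 9.92 FPKM overlapped there, and EPAS1, ADM and EGLN2 were the lowest. Levels between genes are per length, and the exon lengths behind them ran from 1670 bases for CA9 to 14431 bases for VEGFA, whose many isoforms lengthen the divisor.

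Other genes of the pathway were counted from 5 lists of 105 genes, of which 69 were tested. The lists were written with earlier results of these data known, so they are a description. Among the 69, 18 rose (26.1%) and 3 fell (4.35%) past the adjusted p-value and fold-change threshold, beside 9.50% and 10.3% of all genes. Of the 18, 4 had control means under 1 FPKM and passed the filter only through sh-LDB1, which leaves 14 of 65. The median log2 fold change over the 69 was 0.42, compared with -0.08 over all genes.

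Of the 14 HIF partners and regulators tested, 0 rose and 1 fell past the threshold, with a median of 0.07. The gene that fell was USP20, a deubiquitinase that can stabilise HIF1A protein, at 52.5 and 49.8 FPKM in sh-NC and 23.4 and 22.6 FPKM in sh-LDB1 (log2 fold change -1.12, limma adjusted p = 0.000153). By adjusted p-value alone, 5 of the 14 were higher and 6 lower, beside 29.9% and 37.4% of all genes, so these counts are near the background. ARNT2, HIF3A, CITED4 and P4HTM were under the filter.

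Of the 21 glycolytic genes tested, 6 rose and 1 fell past the threshold (median 0.48), beside 9.50% and 10.3% of all genes. Without SLC16A3, which passed the filter only through sh-LDB1, 5 of 20 rose. SLC16A3, a lactate exporter, rose from 0.996 and 0.663 FPKM to 14.0 and 13.8 FPKM (log2 fold change 3.03, limma adjusted p = 0.000116). SLC2A3, which encodes the glucose transporter GLUT3, rose from 61.1 and 63.4 FPKM to 259.2 and 257.2 FPKM (2.03, adjusted p = 6.77e-05). HK1, a hexokinase of red cells and many other tissues, fell from 108.4 and 103.9 FPKM to 31.7 and 31.6 FPKM (-1.71, adjusted p = 7.59e-05). The glucose transporter SLC2A1, also a known HIF target and named after its values were seen, went from 113.4 and 108.6 FPKM to 65.2 and 64.9 FPKM (-0.76, adjusted p = 0.000248), short of the fold-change threshold. So the 2 glucose transporters moved in opposite directions. By adjusted p-value alone, 12 of the 21 glycolytic genes were higher and 3 lower, beside 29.9% and 37.4% of all genes.

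Of the 27 other targets tested, 10 rose and 1 fell past the threshold (median 0.49), beside 9.50% and 10.3% of all genes. Of the 10, 2 passed the filter only through sh-LDB1, which leaves 8 of 25. ANGPTL4, a secreted inhibitor of lipoprotein lipase, rose from 1.44 and 1.31 FPKM to 27.3 and 29.4 FPKM (log2 fold change 3.62, limma adjusted p = 6.77e-05). TFRC, the transferrin receptor, fell from 128.4 and 133.4 FPKM to 60.2 and 59.6 FPKM (-1.11, adjusted p = 0.00012). The falls of HK1 and TFRC went with that of the erythroid markers, whose sum was 3716 and 3877 FPKM in sh-NC and 323.0 and 289.2 FPKM in sh-LDB1, and the part of that shift in them was not tested. By adjusted p-value alone, 19 of the 27 other targets were higher and 3 lower, beside 29.9% and 37.4% of all genes.

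Receptors of the ligands with a row in the table were low. Of the 15 genes on the list of VEGF and ADM ligands and receptors, only the ligands VEGFB and ADM2 were tested by limma. Neither was called or had an adjusted p-value below 0.05. A further 6 of the 15 had no row in the values used here, so no level can be given for them. The VEGF receptors FLT1, KDR and FLT4 were all under 1 FPKM in every library, as was the adrenomedullin receptor CALCRL. Of the 5 relatives of NDRG1, BNIP3 and CA9 tested, 2 rose past the threshold, beside 9.50% of all genes. Without CA13, which passed the filter only through sh-LDB1, 1 of 4 did. Leaving out either sh-LDB1 library also left 1. NDRG2 rose from 7.60 and 7.42 FPKM to 18.8 and 19.0 FPKM (log2 fold change 1.23, limma adjusted p = 0.000124). CA13, a cytosolic carbonic anhydrase, rose from 0.19 and 0.245 FPKM to 1.75 and 1.89 FPKM (1.21, adjusted p = 0.00224). CA1, on the same list and named after its values were seen, went from 1.23 and 1.77 FPKM to 0.0767 and 0 FPKM. It was under the filter and not tested. With no filter, or with the filter of 1 FPKM in 2 libraries, 1 gene of this list was called lower.

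**Figure D4:**
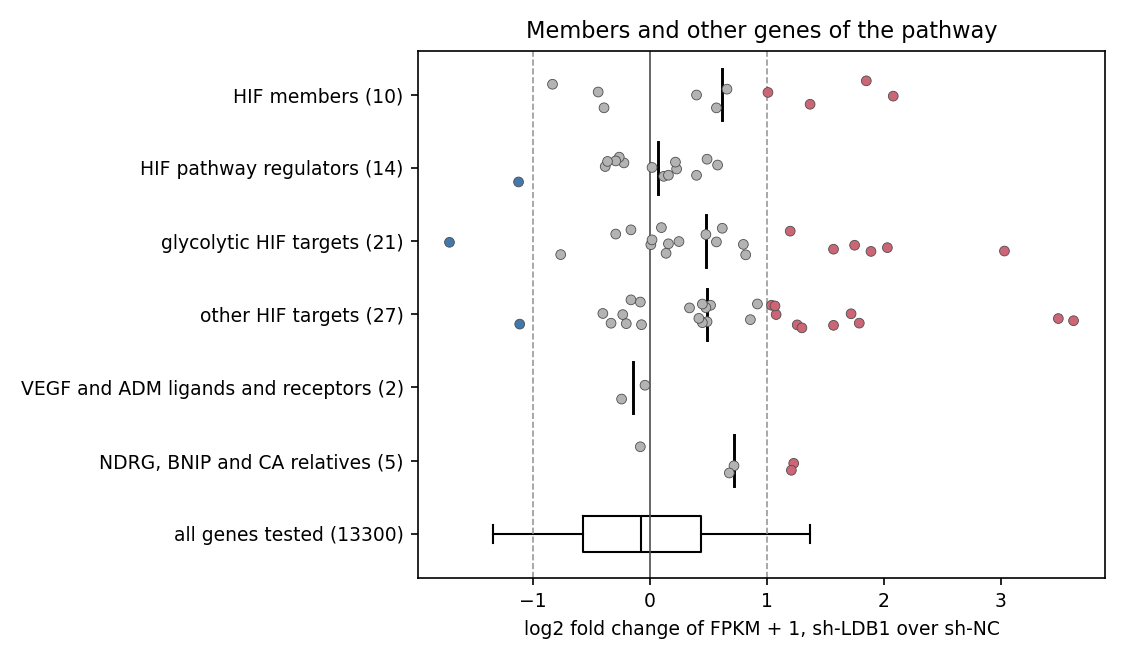
Log2 fold change of FPKM + 1, sh-LDB1 over sh-NC, for each tested gene of the members and the 5 lists, with red for genes called higher, blue for genes called lower, grey for the rest and a black line at each median. The box for all 13300 genes spans the quartiles, its whiskers run from percentile 5 to percentile 95, and its median was -0.08, while the medians of glycolytic and other targets were 0.48 and 0.49.

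Scaling of the libraries moved genes in the same direction, and low genes by less on the log2(FPKM + 1) scale. With equal summed FPKM, ADM went from 1.37 to 1.45, while NDRG1 went from 2.08 to 2.25. When each library was rescaled to the same summed FPKM, the median of all genes moved by 0.15 on the log2 scale, and the lower share of calls went from 52.0% to 37.9%. All 10 members kept their direction, while USP20 and TFRC no longer passed the fold-change threshold. EGLN1 was then -0.67, against -0.83 under the deposited scaling, and BNIP3 was -0.27, against -0.44. Each library is multiplied by a single factor, so these moves follow from the shift and are no separate check.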

How the data were processed

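RNA-seq was measured in 4 libraries, 2 of sh-NC and 2 of sh-LDB1, grouped by their titles. After read filtering and mapping by HISAT (HISAT2 2.0.5 and hg38 in the submitters' processing notes), the authors deposited FPKM for each gene in each library. Which annotation, counter and strand setting they used is not given in the sources used here.

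Reads behind the FPKM were recovered as whole multiples of the value of 1 read, with fitted gene lengths, 83.1% of which lay within 10% of those of GENCODE 44. Of the genes above 0, 99.99% gave reads within 0.005 of whole numbers in all libraries. Each FPKM value carries counting error, and at 7 reads that error is large. Levels were taken as log2(FPKM + 1), genes averaging 1 FPKM or more were tested with limma 3.58.1 (eBayes with trend, R 4.3.3), and a gene was called at an adjusted p-value under 0.05 when its fold also exceeded 2 or was under 0.5. Count models were not used on FPKM. Other steps used Python 3.11.15. The fit and the recovery were tested on simulated data. The recovered reads of replicates differed by more than sampling noise (chi-square per gene 4.39 for sh-NC, 2.21 for sh-LDB1).

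The members and lists were chosen with earlier results of these data known. Named genes were the members, LDB1, the 2 largest rises and falls called in each list, and up to 3 abundant cell type markers, which are given here as sums over their lists. A single gene that this rule names is not reported here. Positions are from GENCODE 44 on GRCh38 and promoters from RefSeq. Alternatives were another pseudocount, other filters, scalings and models, a replicate block and each library left out.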

Additional observations from a re-analysis of the deposited data

How the results depend on the processing

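No member changed direction under any alternative that gave it a value (12 for each, 11 for ADM). With each library left out in turn, VEGFA ranged from 0.94 to 1.07 on the log2 scale and lost its call without sh-NC replicate 2. ADM had no value without sh-LDB1 replicate 1. The other members kept their side of the combined threshold in every alternative that keeps the fold limit. By adjusted p-value alone, the counts were 7 higher and 2 lower members, 40 higher and 12 lower genes on the wider lists, and 3983 higher and 4978 lower genes overall. With equal summed FPKM, 1 gene of the wider lists was lower, in place of 3. Overall counts of higher and lower genes were 1697 and 1880 at a pseudocount of 0.1, while equal summed FPKM gave 1628 and 995, and scaling by total recovered reads gave 1495 and 1115, and voom gave 1753 and 1933. Scaling by total reads and voom on recovered reads were chosen after seeing the data. Same-numbered libraries share only a number in the labels, and the correlation of their deviations was 0.0196. With the replicate number as a block, 1274 genes were higher and 1386 lower, against 1264 and 1371, and no member's call changed. ADM, at 7 and 11 control reads, is the member most limited by depth.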
